A study of Rattus norvegicus with 7 samples.

Results

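The cytosolic ribosomal protein genes were taken from the deposited tables by symbol. Symbols of the form Rpl or Rps followed by a number were members, as were Rplp0, Rplp1, Rplp2 and Rpsa, and the Rps6k kinases were left out. The rule found 83 of the 17147 gene symbols, of which 1, Rpl37a-ps1, is a pseudogene and is described apart. The other 82 genes code for 49 proteins of the large subunit and 33 of the small subunit, and 77 of them are the canonical genes while 5 are paralogs (Rpl22l1, Rpl39l, Rpl3l, Rps27l and Rps4y2).

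The RNA came from rMSCs, primary mesenchymal stem cells grown from bone marrow of a male Sprague-Dawley rat aged 6 weeks (the methods name a single rat), 4 h after 20000 cells were seeded on each surface. Of the surfaces, ISB-P is a film of a polycaprolactone-polyurethane copolymer built with a propoxylated isosorbide, PCL is a film of polycaprolactone alone, and TCP is the tissue culture plate. The films were 16 mm wide and sterilised with ethylene oxide gas. There were 3 libraries for ISB-P, 3 for PCL and 1 for TCP, all of poly-A RNA, and the comparison of ISB-P with PCL addresses why cells adhered better to ISB-P. Neither the labels nor the methods say that the replicates were separate animals or separate cultures, so the p-values measure only the spread between these libraries. In bulk RNA, fewer cells of a type and less RNA per cell cannot be told apart.

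A ribosome is built from a small subunit, which reads the mRNA, and a large subunit, which joins amino acids, and each holds its own set of proteins, most of them present once per ribosome. The mRNAs of these proteins are among the most abundant of growing cells and are known for a 5′ terminal oligopyrimidine tract, a C at the first base followed by a run of C and T. Through that tract their translation is known to be held under the control of mTORC1 and the RNA-binding protein LARP1.

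The tract was looked for in the RefSeq promoter table of build GRCr8, as a C at the annotated start followed by 4 bases that are each C or T, on the strand of the gene only. Each line shows 30 bases, 10 before the start and 20 from it. Capitals mark the unbroken pyrimidines from the start onward, where they met this rule. Pyrimidines directly before the start are left in lower case. The first 5 genes are named below for their level or difference, and all of them met the rule. Others named below on the same grounds did not meet it and are not shown, among them Rpl41, Rps2, Rps24, Rpl36a, Rpl21 and Rpl3. The last 2 pairs set a paralog beside its parent gene.
Rplp1: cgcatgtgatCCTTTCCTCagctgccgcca
Rpl37a: cccgttgcgtCTCTTCCTCTTCgggcttgg
Rpl28: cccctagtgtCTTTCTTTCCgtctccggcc
Rps15: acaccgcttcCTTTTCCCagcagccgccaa
Rplp0: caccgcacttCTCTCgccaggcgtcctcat
Rpl22: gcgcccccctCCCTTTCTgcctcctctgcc
Rpl22l1: gtggatatccggttccgagttgcgcagcgc
Rps27: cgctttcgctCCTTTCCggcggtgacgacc
Rps27l: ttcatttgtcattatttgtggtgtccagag
In the same order they lie at chr8:71290853-71290882 (minus strand), chr9:81748081-81748110 (plus), chr1:78083513-78083542 (minus), chr7:10068096-10068125 (minus), chr12:46718371-46718400 (minus), chr5:168117951-168117980 (plus), chr2:113683186-113683215 (plus), chr2:177964587-177964616 (minus) and chr8:76443648-76443677 (plus) of GRCr8. Counted from the start onward, the run was 12 bases long in Rpl37a and 5 in Rplp0, and neither paralog shown began with one.

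Of the 82 genes, 66 had an entry in the promoter table, and 24 of these (36.4%) began with the motif. It stood at the start of 17 of 40 large subunit genes (42.5%), 7 of 26 small subunit genes (26.9%) and 0 of the 4 paralogs with an entry. The share was 3.11% over all 27457 promoter symbols, 2.73% over the tested genes outside the family and 3.70% (2 of 54) over the mitochondrial ribosomal protein genes. With the first base allowed to lie within 5 bases of the annotated start, the share was 62.1% in the family and 19.0% over all symbols. A match is a description of the letters and depends on where RefSeq places the start.

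**Figure D1:**
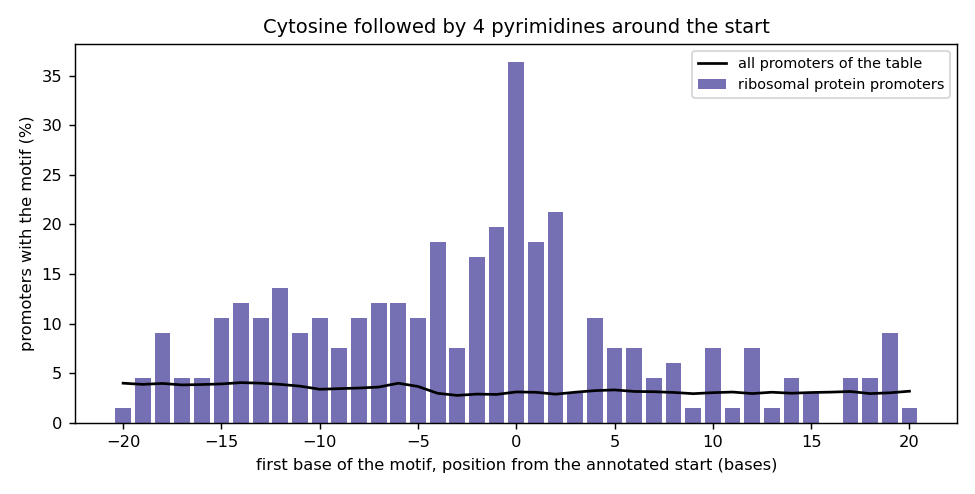
Share of promoters (y axis, %) in which a C followed by 4 pyrimidines begins at each position from the annotated start (x axis, bases, start at 0); bars are the 66 ribosomal protein genes with a promoter entry and the line is all 27457 promoter symbols. The bar at the start reaches 36.4% against 3.11% for the line.

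Values were read as FPKM, a level corrected for transcript length, so that genes can be set side by side. Of the 82 genes, 75 passed the filter, which asked for 1 FPKM or more in 3 or more of the 6 libraries from films, 45 of the large subunit and 30 of the small subunit. The 7 others were low or absent in these tables rather than low on one surface. Rpl7a and Rpl8 (large subunit), Rplp2 (a protein of the stalk), Rps6 (the substrate of the S6 kinases) and Rps9 (small subunit) were listed at 0 in all 7 libraries. Rps19, another small subunit gene, was 0.728 FPKM in the TCP library, 0, 0.261 and 0 on PCL films and 0.384, 0.0999 and 0 on those of ISB-P. Rpl3l, a paralog known from muscle, was at most 0.103 FPKM. A ribosome needs each of the canonical proteins, and the zeros are not specific to this family, since Col1a2 was also listed at 0 in every library where Col1a1, its partner in type I collagen, was the most abundant marker of the stem cells. Whether these zeros come from the cells or from the making of the tables was not tested. Ribosomal protein genes have many near-identical copies in the genome, and how reads shared between copies were counted is not stated, so each level is uncertain to that extent.

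The sums over all genes ranged from 539393 FPKM on TCP to 660124 on ISB-P, and between 4537 and 5105 symbols were listed at 0. Read depth is unknown, so no interval or floor is given for single libraries. The markers of mesenchymal stem cells summed to 17810 FPKM on TCP and to 8811 to 10940 on the films. Markers of macrophages summed to 145 FPKM on TCP and to 45.0 to 51.9 on the films, where PCL (45.0 to 51.6) and ISB-P (46.4 to 51.9) overlapped, and adipocyte markers to 75.9 on TCP and 20.0 to 41.1 on the films. All 6 endothelial and all 9 blood cell markers in the tables were under 1 FPKM in every library.

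The family made up a large and steady part of the measured RNA. The 75 genes together held 14.8% of the summed FPKM in the TCP library. Canonical genes listed at or near 0 did not pass the filter and are left out of the shares and sums given here. Replicates 1, 2 and 3 held 17.0%, 15.8% and 16.2% on PCL, and 16.9%, 16.1% and 15.7% on ISB-P films. The PCL and ISB-P libraries overlapped, at 16.3% ± 0.615 (SD, n = 3) and 16.2% ± 0.630 (SD, n = 3), and TCP lay below all 6. Quantile scaling gives all 7 libraries the same distribution of values by rank, so it can take out a shift shared by genes of high level. After it the share of the TCP library was 15.2%, that of PCL 16.4% ± 0.281 and that of ISB-P 16.0% ± 0.233 (SD, n = 3 each).

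The 45 large subunit genes summed to 46372 FPKM on TCP, to 52426, 51440.0 and 55948 on PCL and to 58207, 55637 and 60002 on ISB-P. The 30 small subunit genes summed to 33580 FPKM on TCP, to 39749, 36676 and 40983 on PCL and to 42141, 39427 and 43561 on ISB-P. On the deposited scale the films overlapped in both sums, since PCL replicate 3 passed ISB-P replicate 2. The ratio of the large to the small sum was 1.38 for TCP, 1.36 ± 0.0419 for PCL and 1.39 ± 0.0185 for ISB-P (SD, n = 3 each). It leaves out the canonical genes of either subunit listed at or near 0, so it is not the balance of whole subunits. The films overlapped, and at replicate numbers 1, 2 and 3 the ratio was 1.32, 1.40 and 1.37 for PCL and higher, at 1.38, 1.41 and 1.38, for ISB-P. On the quantile scale the ratio was 1.35, 1.36 ± 0.0379 and 1.41 ± 0.0246 for TCP, PCL and ISB-P, and the films again overlapped (1.33, 1.40 and 1.35 for PCL, with 1.40, 1.44 and 1.39 for ISB-P). ISB-P was thus the higher film at each of the 3 numbers on both scales, a difference that was not tested.

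**Figure D2:**
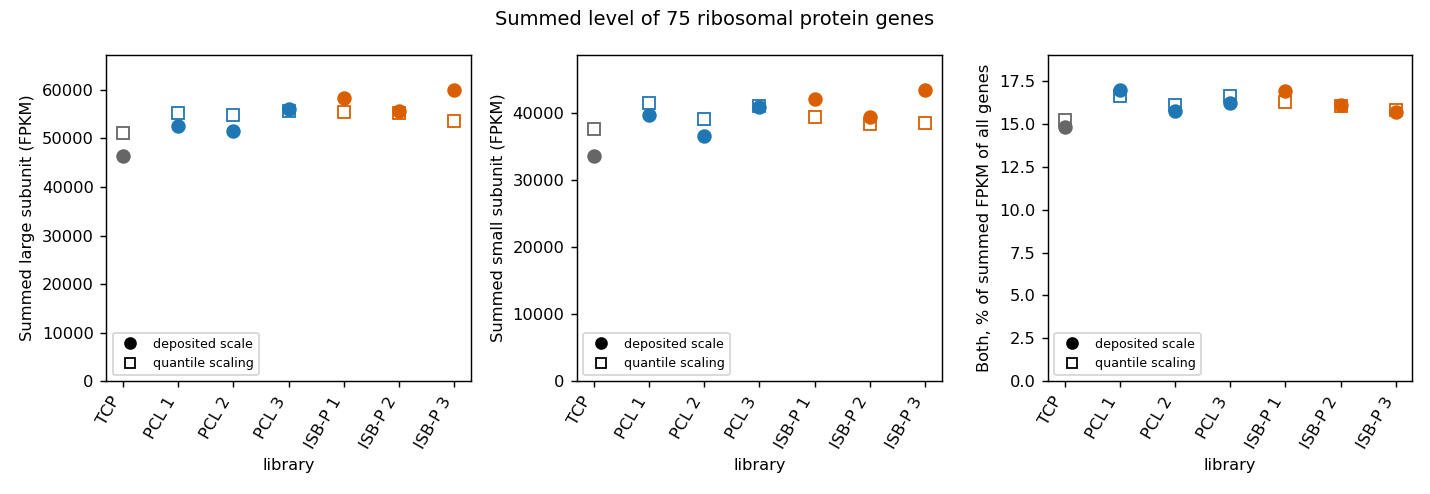
Summed FPKM of 45 large subunit genes (left) and 30 small subunit genes (middle), and both as a percentage of the summed FPKM of all genes (right), for each library on the x axis; filled circles are the deposited scale, open squares quantile scaling, and colours mark TCP (grey), PCL (blue) and ISB-P (orange). TCP is the lowest library in every panel, with 14.8% against 15.7% to 17.0% on the films on the deposited scale.

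Within the large subunit, Rplp1, a stalk protein that helps recruit elongation factors, had the highest level, with 3543 FPKM for TCP, 3063, 4271 and 4227 for PCL and 4117, 4815 and 3753 for ISB-P. PCL replicates 2 and 3 lay above ISB-P replicates 1 and 3, so the films overlapped. Rpl41, a very short protein, and Rpl37a followed, at means over the 6 film libraries of 3443 and 3367 FPKM. Rpl37a was 3678 FPKM on TCP, above 5 of the 6 film libraries, which lay between 2786 and 3396 on PCL and between 3123 and 3990 on ISB-P. The lowest canonical members that passed the filter were Rpl28 (345 FPKM), Rpl15 (410 FPKM) and Rpl26 (460 FPKM). Within the small subunit, Rps2 (2700 FPKM), Rps24 (2546 FPKM) and Rps29 (2282 FPKM) were the most abundant, and Rps10 (908 FPKM) was among the least. The canonical members thus spanned 345 to 4041 FPKM.

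The paralogs were lower than their parents. Rps4y2, a relative of Rps4x that lies outside the X chromosome in GRCr8, averaged 12.5 FPKM over the films against 1155 for Rps4x, and Rpl39l averaged 98.5 against 1909 for Rpl39. Rpl22l1, whose protein can replace that of Rpl22, averaged 261 FPKM against 644, and Rps27l, a target of p53, averaged 283 against 1151 for Rps27.

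Between the films, no ribosomal protein gene passed the test without the replicate number as a block, and 5 passed with it on the deposited scale. With limma on log2(FPKM + 1) and Benjamini-Hochberg adjustment over 9467 genes, 0 of the 75 genes passed an adjusted p of 0.05 as higher on ISB-P, where 1.10% of all tested genes did, and 0 passed as lower, where 0.623% did. In this fit without the block the count at an unadjusted p under 0.05 was also 0, against 12.1% of all tested genes, both directions together. The smallest p of the family was 0.0970 (Rpl23a) and its smallest adjusted p from limma was 0.559. On quantile-scaled values limma again called 0 genes higher and 0 lower (1.00% and 0.485% of all genes tested), and 0 at an unadjusted p under 0.05 (11.2%).

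In the fit without the block, the sizes of most differences were bounded, and no interval is given here from the fit with it. The standard errors from limma ran from 0.09 to 0.31 on the log2 scale, and the 95% interval of the difference lay within 1.5-fold either way for 59 of the 75 genes and within 2-fold for 74. The exception was Rpl22l1, with an interval from -0.38 to 1.08. With quantile scaling 67 intervals lay within 1.5-fold and all 75 within 2-fold. With 3 libraries against 3, the exact two-sided permutation test cannot give a p below 0.1.

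The small differences pointed one way on the deposited scale. ISB-P had the higher mean for 43 of 45 large subunit genes, with a median log2 difference of 0.11 and a range from -0.01 to 0.35. It had the higher mean for 27 of 30 small subunit genes, with a median of 0.08 and a range from -0.07 to 0.19. The median over all tested genes was 0.02, and 52.9% of them were above 0. Among same-numbered libraries the large subunit medians were 0.11, 0.12 and 0.13 and the small subunit medians 0.09, 0.10 and 0.03.

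That direction did not hold under all scalings. After quantile scaling the medians were -0.01 for the large and -0.05 for the small subunit, with -0.02 over all genes. Above 0 were 29 of the 75 differences (38.7%), against 46.7% over all genes. Scaling each library to a common total gave -0.01 and -0.03, both above the -0.09 over all genes. Above 0 were 32 (42.7%), against 33.6% over all genes, so relative to all genes the members still lay higher. This scaling alone moved the median of all genes by more than 0.1. Upper quartile scaling kept the direction, with 0.09 and 0.06, -0.0024 over all genes and 65 above 0 (86.7%, against 49.6% over all genes). The mean of the summed FPKM was itself 0.12 higher on ISB-P than on PCL on the log2 scale, a shift of the size of the members' medians.

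**Figure D3:**
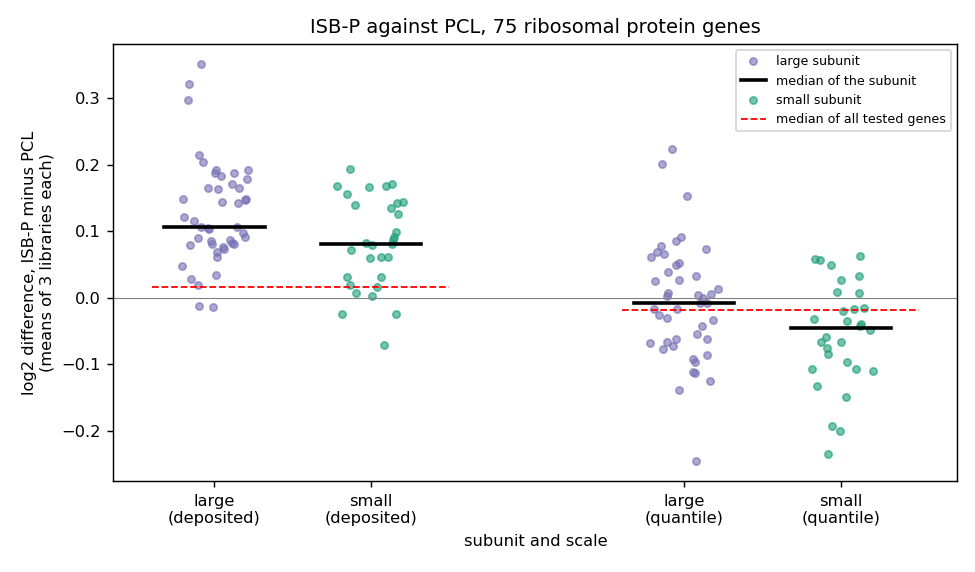
Log2 difference of ISB-P minus PCL (y axis, means of 3 libraries each) for the 45 large and 30 small subunit genes on the deposited and the quantile scale (x axis); points are genes, black bars subunit medians and dashed red lines the median of all tested genes. On the deposited scale 70 of 75 points lie above 0, against 52.9% of all tested genes, and on the quantile scale 29 do, against 46.7%.

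ISB-P was above PCL at each of the 3 replicate numbers for 47 of the 75 genes (62.7%) on the deposited scale, where 30.5% of all tested genes were. On the quantile scale this held for 5 genes (6.67%), all of the large subunit (Rpl10a, Rpl17, Rpl3, Rpl4 and Rpl7), against 26.4% of all tested genes. The count therefore lay above the background on the deposited scale and below it on the quantile scale. Since quantile scaling can itself take out a shift shared by genes of high level, its count is no independent check of a shared rise.

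The 3 libraries of each film did not overlap for few members. All 3 ISB-P libraries lay above all 3 PCL libraries for 5 genes (6.67%), against 8.17% of all tested genes, and below them for 0, against 9.54%. They were Rps26, Rpl35a, Rpl10a, Rpl38 and Rpl14, with log2 differences of 0.17, 0.18, 0.15, 0.14 and 0.11, and the adjusted p from limma was 0.654 or more for each. Rpl10a was 692, 697 and 649 FPKM on PCL and 785, 766 and 707 on ISB-P, so the lowest ISB-P library lay close above the highest PCL library. On the quantile scale the count above was 0 (8.55% of all tested genes) and the count below was 2 (8.93%), Rps29 and Rpl32, with log2 differences of -0.20 and -0.14.

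Libraries of the films that carry the same replicate number deviated together, with correlations across genes of 0.887, 0.431 and 0.867 for numbers 1, 2 and 3. When limma took the number as a block, 5 of the 75 genes (6.67%) passed an adjusted p of 0.05 as higher on ISB-P, against 13.0% of all tested genes, and 0 as lower, against 11.4%. The 5 belonged to the large subunit and were Rpl22l1, Rpl36a, Rpl3, Rpl23a and Rpl21. With quantile scaling and the block together, 0 genes passed as higher (11.4% of all genes) and 1, Rplp0, as lower (12.9%). In each direction the share called was below that among all genes, and none of the 6 genes passed under both scales. At an unadjusted p under 0.05, limma with the block counted 23 of the 75 genes, both directions together. With quantile scaling and the block it counted 4. The share over all tested genes was not taken for these unadjusted counts.

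Rpl23a, which lies at the exit of the peptide tunnel, had the smallest p. In replicates 1, 2 and 3 it was 779, 1044 and 1164 FPKM on PCL films, against 1235, 1132 and 1324 on ISB-P, with 957 on TCP. Replicate 1 of PCL was the lowest of the 6 film libraries, and replicate 3 of PCL passed replicate 2 of ISB-P, so the films overlapped. The log2 difference was 0.32 (SE 0.17, limma adjusted p = 0.559, with the block 0.0477), it was 0.16 without PCL replicate 1, and on the quantile scale it was 0.20 (adjusted p = 0.782, with the block 0.247).

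Rpl22l1 had the largest difference of the family. The TCP library had 130 FPKM, the PCL libraries 191, 196 and 284 and the ISB-P libraries 204, 248 and 441. TCP was the lowest library and ISB-P replicate 3 the highest, while PCL replicate 3 lay above ISB-P replicates 1 and 2. The log2 difference of ISB-P minus PCL was 0.35 (SE 0.31, limma adjusted p = 0.834, with the block 0.0303) and on the quantile scale 0.22 (with the block adjusted p = 0.113). The deposited difference was 0.030 without ISB-P replicate 3, 0.58 without ISB-P replicate 1 and 0.54 without PCL replicate 3. Its parent Rpl22 was 673, 544 and 660 FPKM on PCL and 742, 588 and 656 on ISB-P, a log2 difference of 0.08 that was -0.06 on the quantile scale.

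Rpl36a was 317, 416 and 511 FPKM on PCL and 446, 431 and 654 on ISB-P, with a log2 difference of 0.30 (SE 0.23, limma adjusted p = 0.783, with the block 0.0357). Rpl3, which reaches towards the peptidyl transferase centre, was 875, 770 and 835 FPKM on PCL and 1015, 873 and 946 on ISB-P, a difference of 0.19 (SE 0.11, limma adjusted p = 0.627, with the block 0.0438). Both overlapped between the films, Rpl3 because PCL replicate 1 lay just above ISB-P replicate 2. Rpl21 differed by 0.20 (SE 0.17, limma adjusted p = 0.818, with the block 0.0495). On the quantile scale the differences of Rpl36a, Rpl3 and Rpl21 were 0.15, 0.09 and 0.08, and with the block none passed. The deposited difference of Rpl36a was 0.12 without PCL replicate 1, 0.11 without ISB-P replicate 3 and 0.46 without PCL replicate 3, and that of Rpl21 was 0.13 without PCL replicate 1, 0.042 without ISB-P replicate 3 and 0.31 without PCL replicate 3.

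Rplp0, the base of the stalk and often used as a reference gene in PCR, was 1877, 1710 and 1591 FPKM on PCL, 1990, 1795 and 1488 on ISB-P and 1561 on TCP. On the deposited scale the log2 difference was 0.02 (SE 0.14, limma adjusted p = 0.978). Its quantile-scaled values were 2044, 1970 and 1672 on PCL and 1819, 1720 and 1290 on ISB-P, a difference of -0.25 (limma adjusted p = 0.721, with the block 0.0492). The scaling thus set its sign.

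Of the other largest differences, Rpl28 was 221, 390 and 357 FPKM on PCL and 294, 398 and 413 on ISB-P (log2 difference 0.21, SE 0.25), and Rps16 was 634, 1136 and 1180 on PCL and 866, 1165 and 1262 on ISB-P (0.19, SE 0.27). In both, PCL replicate 1 was the lowest library, and without it the differences were -0.04 and -0.09. The 5 lowest differences were those of Rps15 (-0.07, SE 0.25), Rps21 (-0.02), Rps2 (-0.02), Rpl29 (-0.01) and Rpl34 (-0.01). Rps15 was 1179, 827 and 881 FPKM on PCL and 1256, 856 and 690 on ISB-P, and its difference was 0.12 without ISB-P replicate 3.

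The spread between replicates was larger than the difference between films. A gene's spread from the lowest to the highest replicate, on the log2 scale, had a median of 0.30 on PCL and 0.36 on ISB-P, against a median absolute film difference of 0.10. It exceeded the film difference on both films for 70 of the 75 genes and on at least one film for 74. A range of single libraries can easily pass a difference between means of libraries. The same counts were not taken over all tested genes, so they show no trait of the family.

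Genes of the family did not move in one direction between replicates. On PCL, replicate 3 minus replicate 1 lay between -0.42 (Rps15) and 0.89 (Rps16) on the log2 scale, and on ISB-P between -0.90 (Rps4y2) and 1.11 (Rpl22l1). Replicate 3 was above replicate 1 on both films for 38 genes (50.7%), against 51.5% of all tested genes, and below it on both films for 31 (41.3%), against 37.0%. In the other 6 genes the films differed in sign. The value of a gene on PCL went with that on ISB-P, at Pearson's r = 0.843 across the 75 genes, which share their 4 libraries and are not independent.

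Genes at either end belonged to both subunits. Rps3a was 973, 1064 and 1464 FPKM on PCL and 1043, 1141 and 1822 on ISB-P, with replicate 3 the highest on either film. Rpl15 was 257, 440 and 467 FPKM on PCL and 312, 443 and 539 on ISB-P, with replicate 1 the lowest on either film. At the other end, Rpl13 was 1143, 1084 and 979 FPKM on PCL and 1507, 1164 and 865 on ISB-P, and Rpl36 was 1088, 989 and 971 on PCL and 1343, 1089 and 767 on ISB-P, with replicate 1 the highest on either film.

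**Figure D4:**
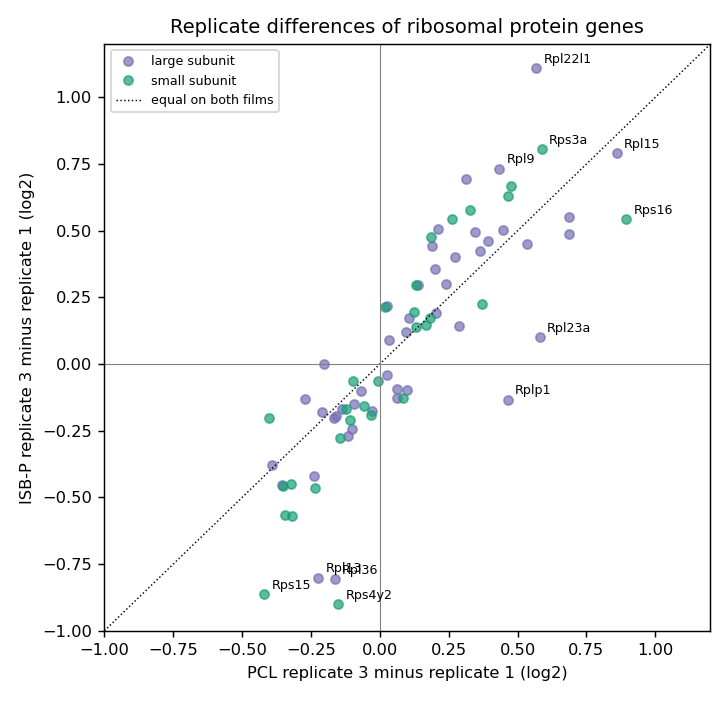
Log2 difference of replicate 3 minus replicate 1 on PCL (x axis) against the same on ISB-P (y axis) for 75 ribosomal protein genes, coloured by subunit; the dotted line marks equal values. The genes spread over -0.42 to 0.89 along the x axis and -0.90 to 1.11 along the y axis, and both subunits reach both ends.

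Against TCP, most members were higher in the film libraries, with 1 TCP library and no test. The mean of PCL lay above TCP for 70 of 75 genes and that of ISB-P for the same number. The share over all tested genes was not taken for these counts. The exceptions on both films were Rpl29, Rpl37a, Rps15, Rps21 and Rps4y2. The median log2 difference of PCL minus TCP was 0.25 for the large and 0.24 for the small subunit, and that of ISB-P minus TCP 0.42 and 0.29, while all tested genes had 0.06 on either film. The rise was not particular to the family. On PCL and ISB-P the medians were 0.26 and 0.34 for mitochondrial ribosomal protein genes. They were 0.23 and 0.43 for translation genes known for the 5′ tract, but 0.03 and -0.06 for genes of mTORC1 and its control. All these differences share the TCP library, and its macrophage, adipocyte and stem cell marker sums, given above, also stood apart from the films. Their part in the differences was not tested.

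On the quantile scale the medians were 0.14 and 0.08 for PCL and 0.16 and -0.0042 for ISB-P, with -0.0046 and -0.03 over all tested genes. The small subunit on ISB-P thus lay level with TCP on that scale. Mitochondrial ribosomal protein genes had medians of 0.19 and 0.21 on PCL and ISB-P there. The members' means above TCP numbered 55 on PCL and 48 on ISB-P, again without a share over all tested genes. The TCP library lay below all 6 film libraries for 43 genes (57.3%), against 29.7% of all tested genes, and on the quantile scale for 29 (38.7%), against 26.2%.

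Few differences from TCP were large. The PCL mean was more than 1.5-fold above TCP for 2 genes, Rpl22l1 and Rpl15, against 13.2% of all tested genes, and more than 1.5-fold below for 0, against 9.50%. The ISB-P mean was more than 1.5-fold above for 7 genes (9.33%), against 19.5%, and below for 0, against 13.9%. The 7 were Rpl22l1, Rpl15, Rps16, Rpl28, Rpl3, Rps3a and Rpl9, of which Rpl22l1 differed most, by 1.11 on the log2 scale. The count above TCP on ISB-P was 3 without replicate 3, 13 without replicate 2 and 19 without replicate 1, and that on PCL was 4 without replicate 1, 1 without replicate 2 and 0 without replicate 3.

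**Figure D5:**
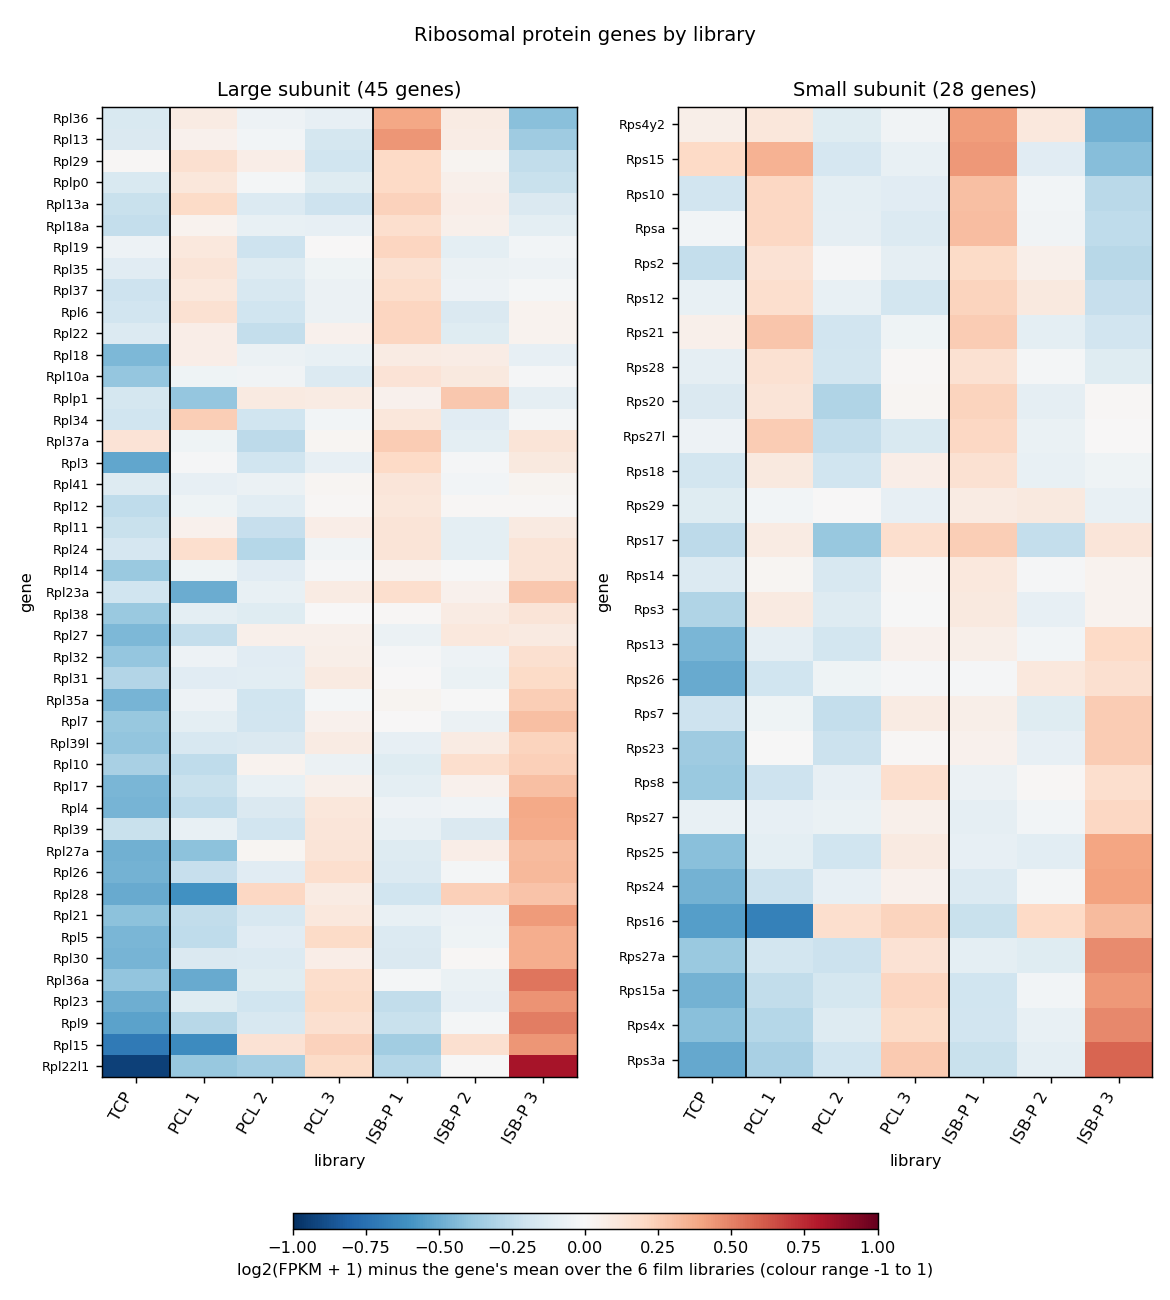
Log2(FPKM + 1) of 73 of the 75 genes (rows, ordered by ISB-P replicate 3 minus replicate 1) in each of the 7 libraries (columns), as the difference from the gene's mean over the 6 film libraries; red is above and blue below that mean. The TCP column lies below the film mean for most genes. That ISB-P replicates 1 and 3 differ in opposite directions at the top and bottom of both panels follows from the row order.

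The pseudogene symbol Rpl37a-ps1 varied far more than any gene of the family. The TCP library had 5.19 FPKM, the PCL libraries 508, 0 and 137 and the ISB-P libraries 37.5, 0 and 81.0. It was listed at 0 in replicate 2 of both films, and the films overlapped (limma log2 difference -1.49, adjusted p = 0.931). Its parent Rpl37a was at least 2786 FPKM in each library, and how reads were shared between them is not stated.

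Genes with and without the motif at the annotated start had like medians between the films. Of the genes that passed the filter, the 24 with the motif had a median log2 difference of ISB-P minus PCL of 0.10, and the 36 with a promoter entry and no motif also had 0.10. Their median levels over the films were 1227 and 1054 FPKM. For ISB-P minus TCP the medians were 0.26 and 0.37. The split depends on where RefSeq places the start. Of the 66 members with an entry, 41 had the motif within 5 bases of it, so some genes counted as without it have it nearby. The medians therefore do not compare genes with and without the tract.

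Genes that work with the ribosome were read for comparison, and in each list 0 genes passed an adjusted p of 0.05 in limma without the block. The shares of all tested genes beside the counts that follow were 12.1% at an unadjusted p under 0.05 and, with the block, 13.0% higher and 11.4% lower on ISB-P. Of the ribosomal proteins outside the symbol rule, Gnb2l1 (the scaffold RACK1 of the small subunit) was 808, 862 and 808 FPKM on PCL and 874, 897 and 775 on ISB-P. Fau, which is made as a fusion with a ubiquitin-like protein, differed by -0.05 on the log2 scale, and Rpl36al by 0.18. At an unadjusted p under 0.05 the counts were 0 of 4 for these genes and 0 of 22 for translation factors and other genes known for the same 5′ tract, a list that also holds Gnb2l1 and Fau.

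The mitochondrial ribosome, a separate machine that translates the mitochondrial genome, had a median log2 difference of 0.08 over 66 tested genes (0.01 on the quantile scale), and 3 of them had an unadjusted p under 0.05, against 12.1% of all tested genes. Its largest difference was that of Mrps10, which was 20.1, 26.0 and 19.0 FPKM on PCL, 32.6, 38.3 and 39.8 on ISB-P and 11.8 on TCP. The films did not overlap (log2 difference 0.75, SE 0.16, limma adjusted p = 0.0939, with the block 0.00132). With the block, 8 of the 66 genes passed as higher, against 13.0% of all tested genes, and 3 as lower, against 11.4%.

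Ribosome biogenesis factors, which assemble the subunits in the nucleolus, had a median of 0.14 over 67 tested genes (0.08 on the quantile scale). None had an unadjusted p under 0.05, against 12.1% of all tested genes. With the block, 18 passed as higher, against 13.0%, and 0 as lower, against 11.4%. Nop58, a core protein of box C/D particles, was 79.9, 99.2 and 139 FPKM on PCL, 112, 134 and 261 on ISB-P and 69.9 on TCP (log2 difference 0.60, SE 0.35, limma adjusted p = 0.621, with the block 0.00315), and its difference was 0.24 without ISB-P replicate 3. The median difference of the list from TCP was 0.38 on PCL and 0.56 on ISB-P. RNA polymerase I genes, which transcribe ribosomal RNA, had a median of 0.19 over 13 tested genes, with 1 at an unadjusted p under 0.05 (12.1% of all tested genes). With the block, 1 passed as higher (Polr1e, 0.38), against 13.0%, and 1 as lower (Polr1c, -0.24), against 11.4%.

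Translation genes known for the 5′ tract had a median of 0.15 over 22 tested genes (0.01 on the quantile scale), and with the block 7 passed as higher, against 13.0% of all tested genes, and 0 as lower, against 11.4%. Npm1, a nucleolar chaperone, was 678, 925 and 1243 FPKM on PCL, 831, 1072 and 2090 on ISB-P and 416 on TCP (log2 difference 0.42, limma adjusted p = 0.837, with the block 0.0174), and with quantile scaling and the block its adjusted p was 0.0987. Its difference was 0.20 without PCL replicate 1, 0.035 without ISB-P replicate 3, 0.63 without PCL replicate 3 and 0.70 without ISB-P replicate 1. Genes of mTORC1 and of its control of these mRNAs had a median of -0.00098 over 19 tested genes, with 1 at an unadjusted p under 0.05 (12.1% of all tested genes), and with the block 3 passed as higher (13.0%) and 1 as lower (11.4%). Among the higher were Eif4e (log2 difference 0.47, limma adjusted p = 0.859, with the block 0.00763) and Eif4g2 (0.32, limma adjusted p = 0.824, with the block 0.0220). Without ISB-P replicate 3 their differences were 0.078 and 0.070. The lower one was Ddit4, an inhibitor of mTORC1, at 25.2, 23.0 and 21.3 FPKM on PCL, 17.5, 16.9 and 13.1 on ISB-P and 42.3 on TCP. Its log2 difference was -0.53 (SE 0.15, limma adjusted p = 0.192, with the block 0.00246). Its films did not overlap, and TCP lay above all 6 libraries.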

How the data were processed

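The authors prepared stranded poly-A libraries (TruSeq), sequenced them as paired ends and analysed the reads with ExDEGA. The submitters' processing notes name bcl2fastq 2.20.0.422, cutadapt 1.18, TopHat2 2.0.13, Cuffdiff 2.2.1 and the build rn5, with no roles or order, and the annotation is not given in the sources used here. The deposited tables, 1 per library, hold a value per gene symbol, read as FPKM from the values (not whole numbers, unequal sums). They are not counts, and since at most 45.5% of low values shared a common step between a pair of libraries, depth is unknown.

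Members and gene lists were chosen with earlier results of these data known. Groups and replicate numbers came from the labels. The test was limma 3.58.1 (lmFit, eBayes with trend, two-sided, R 4.3.3) on log2(FPKM + 1), ISB-P against PCL. It covered the 9467 genes that reached 1 FPKM in 3 or more of 6 film libraries, with Benjamini-Hochberg adjustment. Its run on simulated data used unpaired libraries and changes far larger than the family's differences. That run therefore says nothing about the power to see differences of the family's size. A fold on this scale understates changes of low genes. The TCP library stayed outside the fit. The replicate numbers pair the libraries by their deviations (r above 0.1 for each number), not by a label. At most 1 value of at least 1 FPKM was identical between any pair of libraries.

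Genes were named by rule: calls, the 5 largest and 5 smallest canonical differences, the 3 most and least abundant of each subunit, members listed at 0, paralogs with parents, genes whose films did not overlap, and the 2 largest differences each way of each list. Other genes, such as Rps3a, Rpl13 and Rpl36, were named after their values were seen, and some results that the rule would name are not reported here. Alternatives were quantile, upper quartile and total scaling, a pseudocount of 0.1, other filters, the replicate block, TCP in the fit, canonical members alone, a 2-fold limit for TCP and each replicate left out. Start windows came from RefSeq promoters of GRCr8, another build than rn5, so no measured value was placed by coordinates.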

Additional observations from a re-analysis of the deposited data

How the results depend on the processing

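Of the family's summary values, 110 stayed within the replicate spread (counts within 1.5 times) under an alternative and 32 moved. Some could hardly move, since canonical members that passed averaged 345 FPKM or more, far above the filters and pseudocounts. A fit with a library left out also has less power to call a gene, so the tally is no measure of robustness. The counts of genes higher or lower on ISB-P than on PCL stayed at 0 under each scaling, pseudocount, filter and left-out replicate and with TCP in the fit. With the replicate block, which follows the pairing of the films' libraries, 5 genes passed as higher, and with quantile scaling and the block 1 passed as lower. The large subunit median of ISB-P minus PCL (0.11) was -0.0072 under quantile scaling and -0.0090 under a common total, and 0.076 to 0.18 with each replicate left out. That of the small subunit (0.082) also changed sign, to -0.045 under quantile scaling and -0.035 under a common total. It is counted as unmoved only because these shifts stayed within its replicate spread. The large subunit median of ISB-P minus TCP was 0.16, 0.31 and 0.24 under quantile, upper quartile and total scaling and 0.35 to 0.44 with replicates left out. For the small subunit it was -0.0042 under quantile scaling and 0.10 under a common total. The medians of PCL minus TCP were 0.14, 0.15 and 0.18 for the large subunit under quantile, upper quartile and total scaling, and 0.085 for the small subunit under quantile scaling. The count over 1.5-fold above TCP on ISB-P was 1, 2 and 2 under these scalings, 1 at a 2-fold limit, and 3 to 19 with replicates left out. On PCL it was 1 under each of these scalings and with canonical members only, 0 at a 2-fold limit, and 0 to 4 with replicates left out. Without a filter on low values 1 gene, Rps19, was below TCP on each film. The cause of these changes was not tested.

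Single genes also changed sign, and of those listed here none had a limma adjusted p under 0.05 except Rplp0. The lists are partial. Quantile scaling took the members above 0 from 70 of 75 to 29, so more genes changed sign than are listed. Under quantile scaling, with and without the block, the log2 differences were -0.067 for Rps27l, -0.063 for Rpl22, -0.066 for Rpl39, -0.048 for Rps27, -0.030 for Rpl14, -0.035 for Rps26, -0.20 for Rps29, -0.14 for Rpl32, -0.25 for Rplp0 (block adjusted p = 0.0492) and -0.066 for Gnb2l1. Under a common total they were -0.024 for Rps27l, -0.075 for Rps4y2, -0.035 for Rpl22, -0.019 for Rpl39, -0.055 for Rps27, -0.0100 for Rpl14, -0.044 for Rps29, -0.047 for Rpl32, -0.097 for Rplp0 and -0.079 for Gnb2l1, and under upper quartile scaling -0.0012 for Rplp0. With each replicate left out, the difference ran from -0.035 to 0.37 for Rpl28, -0.095 to 0.36 for Rps16, -0.31 to 0.12 for Rps15, -0.16 to 0.11 for Rps21, -0.12 to 0.11 for Rps2, -0.12 to 0.11 for Rpl29, -0.12 to 0.11 for Rpl34, -0.0049 to 0.24 for Rps27l, -0.17 to 0.28 for Rps4y2, -0.016 to 0.16 for Rpl22, -0.062 to 0.20 for Rpl39, -0.027 to 0.12 for Rps27, -0.058 to 0.28 for Rps4x, -0.075 to 0.13 for Rplp0, -0.0039 to 0.10 for Gnb2l1, -0.23 to 0.13 for Fau, -0.12 to 0.078 for Eif3f and -0.17 to 0.63 for Taf1d. The unknown depth and 3 libraries per film limit what can be seen between the films.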
